A study of Mus musculus with 9 samples.

Results

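A set of 10 sarcomere genes of heart and slow skeletal muscle was followed in messenger RNA from whole mouse aortae. They were chosen by symbol and comprise Myh6, Myh7, Myl2, Myl3, Tnnt1, Tnni1, Tnnc1, Tnnt2, Tnni3 and Actc1, which are 10 of the 55453 genes listed, and all 10 were among the 19412 genes with enough counts to be tested. The 9 libraries came from C57BL/6J mice, 3 of them Itga8-Cre, 3 Myh11-Cre and 3 Wild Type. The first carry Itga8-CreERT2, a Cre recombinase that tamoxifen switches on, tied to the gene Itga8 (integrin alpha 8). The second carry Myh11-CreERT2, the same kind of enzyme tied to Myh11, which encodes smooth muscle myosin heavy chain. The Wild Type mice are the controls, and the design text sets the Itga8 line against the Myh11 line. The sources used here give neither age, sex nor tamoxifen treatment, and nothing states how much tissue around each vessel was left on it.

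The sarcomere is the contractile unit of striated muscle, in which myosin thick filaments pull on actin thin filaments and troponin, bound along the actin, makes the pull depend on calcium. Troponin has a calcium-binding subunit (C), an inhibitory subunit (I) and a subunit that holds it to tropomyosin (T), and most of these parts exist in heart, slow skeletal and fast skeletal forms. Myh6 encodes the alpha myosin heavy chain of the heart, Tnnt2 and Tnni3 its troponins T and I, and Actc1 its actin. Tnnt1 and Tnni1 encode the slow skeletal troponins T and I. Myh7 (the beta, or slow, myosin heavy chain), Myl2 and Myl3 (the regulatory and essential myosin light chains) and Tnnc1 (troponin C) serve both slow skeletal muscle and the ventricle of the heart. The wall of the aorta is built of smooth muscle, which has its own actin and myosin genes and no troponin. Striated muscle is known in the sleeves of the great veins and in the body wall behind the vessel, not as a layer of the aortic wall.

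Of the members, 6 lie as 3 pairs of close neighbours, and each pair joins a heart gene to a slow one. On chromosome 14, Myh6 (54941921 to 54966927) and Myh7 (54970684 to 54994626) are 3756 bases apart on the minus strand (GENCODE M21, build GRCm38). On chromosome 7, Tnni3 (4518305 to 4524229) and Tnnt1 (4504570 to 4516382) are 1922 bases apart, also on the minus strand. On chromosome 1, Tnni1 (135779434 to 135810989) and Tnnt2 (135836354 to 135852260) are 25364 bases apart on the plus strand, with Lad1 between them. The other members are alone: Tnnc1 on chromosome 14 (31208312 to 31211729), Actc1 on chromosome 2 (114047282 to 114053548), Myl2 on chromosome 5 (122100951 to 122113472) and Myl3 on chromosome 9 (110741861 to 110769798).

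Bases before a listed RefSeq start of each gene of 2 of these pairs are shown because the neighbours behaved differently in the aortae, as the levels of Myh6 against Myh7 and of Tnnt2 against Tnni1 show. They are from windows on GRCm38.p6 of 250 bases before that start, in the direction of the gene, with bases of any annotated exon left out: chr14:54966642-54966857 (minus strand) for Myh6, chr14:54994627-54994876 (minus) for Myh7, chr1:135836084-135836333 (plus) for Tnnt2 and chr1:135799171-135799401 (plus) for Tnni1. The Myh6 and Tnni1 windows lie inside the GENCODE spans of these genes, which begin further upstream, so they precede an internal start. Capitals mark CATTCC, the MCAT motif, or its reverse complement GGAATG, and CAGCTG, an E-box, which reads the same on both strands.
Myh6: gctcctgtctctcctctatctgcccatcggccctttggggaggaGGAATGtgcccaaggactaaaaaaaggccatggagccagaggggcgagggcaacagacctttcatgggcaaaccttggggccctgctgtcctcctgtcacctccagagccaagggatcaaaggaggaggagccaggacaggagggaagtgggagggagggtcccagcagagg
Myh7: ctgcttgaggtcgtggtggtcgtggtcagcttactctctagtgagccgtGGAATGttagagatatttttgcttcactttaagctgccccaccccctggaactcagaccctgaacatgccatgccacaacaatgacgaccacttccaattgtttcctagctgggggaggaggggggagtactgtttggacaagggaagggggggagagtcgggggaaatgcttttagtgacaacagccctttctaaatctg
Tnnt2: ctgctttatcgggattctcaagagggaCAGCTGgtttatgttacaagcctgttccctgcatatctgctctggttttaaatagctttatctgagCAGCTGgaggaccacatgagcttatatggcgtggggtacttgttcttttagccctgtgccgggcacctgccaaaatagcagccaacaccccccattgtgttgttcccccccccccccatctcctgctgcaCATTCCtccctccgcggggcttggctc
Tnni1: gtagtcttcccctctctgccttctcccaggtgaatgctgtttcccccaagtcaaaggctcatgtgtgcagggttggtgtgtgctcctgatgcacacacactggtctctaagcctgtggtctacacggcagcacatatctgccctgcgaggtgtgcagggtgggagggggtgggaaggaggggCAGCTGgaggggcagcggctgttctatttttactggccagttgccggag
Both motifs were searched on both strands in the 250 bases before 32851 listed starts. The 10 members have 14 such windows. MCAT, the site of the TEAD factors, was in 12.6% of all windows and in 5 of the 14, those of Myh6, Myh7, Myl3, Tnnc1 and Tnnt2. The E-box, to which muscle helix-loop-helix factors bind, was in 13% of all windows and in 4 of the 14, those of Myl2, Tnni1 and Tnnt2. The Tnni1 windows overlap and hold the same E-box, so these 4 windows stand for 3 genes. The printed windows of Myh6 and Myh7 thus both hold MCAT, 206 and 201 bases before these starts, and those of Tnnt2 and Tnni1 both hold the E-box. Another listed window of Myh7 and another of Tnnt2 hold neither motif. CArG, the site of serum response factor, was in 1.47% of all windows and in 2 of the 14, those of Actc1 and Myl3. TATAAA was in 12.4% of all windows and in 2 of the 14, those of Tnnt1 and Myl2, and the MEF2 motif was in 2.92% of all windows and in 0 of the 14. The remaining pair of neighbours, Tnni3 and Tnnt1, also differed in the aortae but is not printed. Its genes share none of these motifs: the Tnni3 window holds none and the Tnnt1 window only TATAAA. No match in a member's window overlapped one of another motif. The matches are descriptions of these letters and were not tested as sites.

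Depth was close between libraries, at 31419238 to 42497543 total counts. Levels are in CPM, the count of a gene relative to the TMM-scaled library size. Smooth muscle transcripts were present in every library: Myh11 ranged from 460 to 1371 CPM and Acta2, smooth muscle actin, from 171 to 1038 CPM, and none of 10 smooth muscle markers was at 0. Their summed level ran over 1532 to 2024 CPM in the Itga8-Cre mice, 1261 to 3679 CPM in the Myh11-Cre mice and 2344 to 3866 CPM in the Wild Type mice. Of the 10 markers, 2, Des and Synm, had Myh11-Cre 3, Myh11-Cre 2 and Itga8-Cre 3 as their highest 3 libraries, as had Tnni1. This was so for 5.40% of all genes tested. The part of striated muscle in the sum was not tested. Itga8 stood at 54.1, 76.5 and 62.9 CPM in the Itga8-Cre mice and 72.4, 298 and 300 CPM in the Myh11-Cre mice, against 475, 147 and 196 CPM in the Wild Type mice. All 3 Itga8-Cre libraries were below the Wild Type ones, without passing the test (log2 fold change -2.08, SE 0.59; adjusted p = 0.699 by edgeR). In such bulk RNA, a difference in the number of muscle cells and one in RNA per cell cannot be told apart.

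Myh6 had the most CPM of the members in every aorta. It was at 1159, 3832 and 1227 CPM in Itga8-Cre mice 1, 2 and 3, at 1745, 4411 and 4182 CPM in Myh11-Cre mice 1, 2 and 3, and at 926, 2661 and 902 CPM in Wild Type mice 1, 2 and 3. The high libraries were Itga8-Cre 2, Myh11-Cre 2, Myh11-Cre 3 and Wild Type 2, and every genotype thus held both high and low mice. The highest library was 4.89-fold above the lowest.

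The heart troponins followed Myh6 library by library. Tnnt2 was at 187, 681 and 197 CPM in the Itga8-Cre mice, 257, 612 and 607 CPM in the Myh11-Cre mice, and 159, 387 and 146 CPM in the Wild Type mice. Tnni3 was at 118, 433 and 127 CPM in the Itga8-Cre mice, 167, 435 and 403 CPM in the Myh11-Cre mice, and 87.6, 239 and 85.1 CPM in the Wild Type mice. The same 4 libraries were the highest for both genes, and the groups overlapped. Per kb of transcript, Tnnt2 was 70.6% to 90.6% of Myh6 and Tnni3 60.2% to 75.8% of Myh6 over the 9 libraries, although Myh6 itself differed 4.89-fold.

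Actc1 and Tnnc1 had the same 4 highest libraries, and these 5 genes are called the heart-pattern members here. Actc1 was at 259, 601 and 264 CPM in the Itga8-Cre mice, 389, 730 and 664 CPM in the Myh11-Cre mice, and 242, 408 and 189 CPM in the Wild Type mice. It had the smallest range of the members, 3.86-fold, and per kb it was 63.7% to 108% of Myh6. Its coding sequence is similar to those of Acta1 and Acta2, and whether reads were split between these actins was not tested. In Myh11-Cre 1, Actc1 was at 389 CPM beside 4.57 CPM of Acta1 and 171 CPM of Acta2. Tnnc1 was at 24.1, 114 and 44.4 CPM in the Itga8-Cre mice, 37.7, 129 and 139 CPM in the Myh11-Cre mice, and 25.4, 75.7 and 25.2 CPM in the Wild Type mice. The groups overlapped for both genes. The ratio of Tnnc1 to Myh6 per kb was between 17.6% and 30.7%, and this ratio was highest in Itga8-Cre 3, a library low in Myh6.

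**Figure D1:**
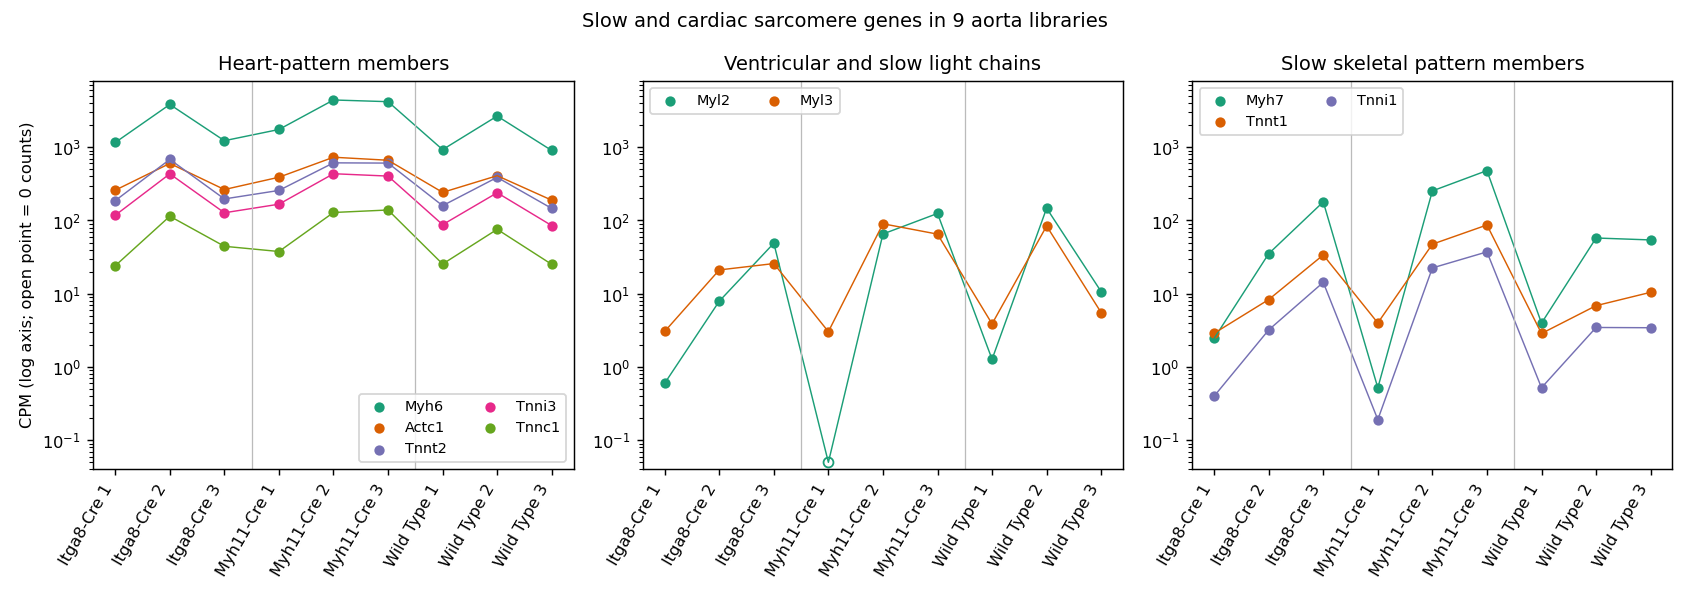
CPM of the 10 members in each of the 9 libraries on log axes, with vertical lines between Itga8-Cre, Myh11-Cre and Wild Type. Tnnt2, Tnni3, Actc1 and Tnnc1 run in parallel with Myh6, which lies between 902 and 4411 CPM, Myh7 ranges from 0.52 to 479 CPM, and Myl2 had 0 counts in Myh11-Cre 1 (open point, drawn below the lowest value).

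The slow members ran in another order. Myh7 was at 2.46, 35.2 and 179 CPM in the Itga8-Cre mice, 0.52, 253 and 479 CPM in the Myh11-Cre mice, and 3.97, 57.6 and 54.2 CPM in the Wild Type mice. The libraries with most were Myh11-Cre 3, Myh11-Cre 2 and Itga8-Cre 3, and the range was 922-fold. The groups overlapped, since each line held libraries under 4 CPM. Itga8-Cre 3 and Itga8-Cre 2 changed places between the genes: Itga8-Cre 2 had 3.12-fold more Myh6 than Itga8-Cre 3, and Itga8-Cre 3 had the higher Myh7.

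Tnni1 was at 0.40, 3.21 and 14.3 CPM in the Itga8-Cre mice, 0.192, 22.5 and 37.3 CPM in the Myh11-Cre mice, and 0.521, 3.46 and 3.44 CPM in the Wild Type mice. Its lowest value, in Myh11-Cre 1, rests on 7 counts, and the range was 195-fold. Tnnt1 was at 2.89, 8.33 and 33.8 CPM in the Itga8-Cre mice, 4, 47.5 and 86.8 CPM in the Myh11-Cre mice, and 2.87, 6.87 and 10.5 CPM in the Wild Type mice. The highest 3 libraries of both genes were those of Myh7, and the groups overlapped. Where Tnni1 was lowest, Tnnt1 stood well above it: per kb it was 808% of Tnni1 in mouse 1 of the Itga8-Cre line, 2336% in mouse 1 of the Myh11-Cre line and 616% in Wild Type mouse 1. In the other libraries it was 222% to 341% of Tnni1.

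Fast skeletal muscle transcripts moved with the slow members and not with the heart members. Acta1, skeletal muscle actin, was at 22.1, 384 and 1501 CPM in the Itga8-Cre mice, 4.57, 2383 and 3636 CPM in the Myh11-Cre mice, and 145, 273 and 343 CPM in the Wild Type mice. All 12 fast sarcomere genes had Myh11-Cre 3, Myh11-Cre 2 and Itga8-Cre 3 as their highest 3 libraries, as had Myh7, Tnnt1 and Tnni1, and 5.40% of the 19412 genes tested did. Their summed level ran from 147 to 6426 CPM in the Itga8-Cre mice, from 75.4 to 14647 CPM in the Myh11-Cre mice and from 790 to 1672 CPM in the Wild Type mice, and none was at 0 in any library. The 4 libraries highest in Myh6 were also the highest for 13 of 16 tested genes of another heart list, among them Pln, a regulator of the calcium pump, Ryr2, the calcium release channel, and Mybpc3, a thick filament protein. That list's summed level ran from 562 to 3390 CPM in the Itga8-Cre mice, from 769 to 3564 CPM in the Myh11-Cre mice and from 510 to 1685 CPM in the Wild Type mice, and the same 4 libraries were the highest for 2.40% of all genes tested. Among 22 sarcomere genes common to striated muscles, 11 had the 3 libraries of Tnni1 on top, Ttn (titin) among them, and 5 had the 4 libraries of Myh6.

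**Figure D2:**
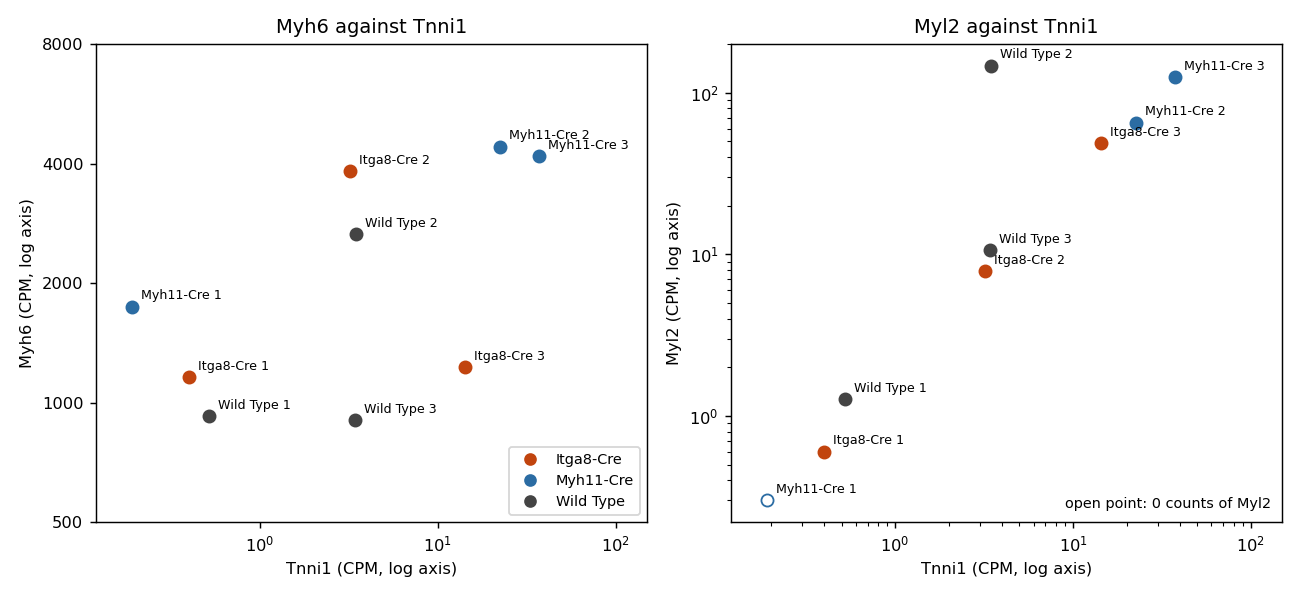
CPM of Myh6 (left) and Myl2 (right) against Tnni1 in the 9 libraries, log axes, one point per mouse. Itga8-Cre 3 is high in Tnni1 (14.3 CPM) and low in Myh6 (1227 CPM), and Wild Type 2 stands above the other libraries in Myl2 (147 CPM) at a Tnni1 of 3.46 CPM; the open point has 0 counts of Myl2 and is drawn at the foot of the axis.

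The light chains Myl2 and Myl3 followed neither order over all 9 libraries. Myl2 was at 0.60, 7.91 and 49.0 CPM in the Itga8-Cre mice, 0, 65.4 and 125 CPM in the Myh11-Cre mice, and 1.27, 147 and 10.7 CPM in the Wild Type mice. Wild Type 2 was the highest library, though 3 libraries exceeded it in Myh7. The other 8 libraries stood in the same order for Myl2 as for Tnni1. Myh11-Cre 1 had 0 counts of Myl2 among 42497543, which allows up to 0.0821 CPM (3 counts, counting error only), beside 63765 counts of Myh6. Myl3 was at 3.06, 21.1 and 25.8 CPM in the Itga8-Cre mice, 3.04, 90.1 and 65.1 CPM in the Myh11-Cre mice, and 3.88, 84.1 and 5.52 CPM in the Wild Type mice. It was highest in Myh11-Cre 2 and next in Wild Type 2, and the groups overlapped for both light chains.

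Wild Type 2 differed from the other libraries in its mix of heart transcripts. Against Itga8-Cre 2, which had nearly the same Tnni1, Wild Type 2 had 18.6-fold more Myl2 and 3.98-fold more Myl3. Per kb, Myl2 was 5490% of Tnni1 in Wild Type 2 and 0% to 443% in the other libraries. Of 7 atrial genes, 5 had their lowest ratio to Myh6 there and 2 did not. Myl7, the atrial regulatory light chain, was 95.8% of Myh6 per kb in Wild Type 2 and 130% to 194% elsewhere, and Myl4, the atrial essential light chain, 65.3% against 102% to 138% elsewhere. Sln, the sarcolipin of the atrium, was 9.74% of Myh6 in Wild Type 2 and 15.2% to 22.1% elsewhere, and Mybphl and Kcnj3 were also lowest there. Nppa, the atrial natriuretic peptide, went the other way, at 116% of Myh6 in Wild Type 2, above the 7.47% to 42.5% of 5 libraries and below the 260% to 338% of the other 3. Bmp10, an atrial growth factor, was at 6.08 CPM in Wild Type 2, above all but Myh11-Cre 2 and 3. Irx4, a transcription factor of the ventricle and chosen here after its values were seen, had 38 counts in Wild Type 2 and at most 2 in any other library. The summed level of 7 atrial genes ran over 485 to 3778 CPM in the Itga8-Cre mice, 662 to 4082 CPM in the Myh11-Cre mice and 364 to 1105 CPM in the Wild Type mice, with Bmp10 at 0 in Itga8-Cre 1 and Wild Type 1. The Wild Type 2 values are those of 1 animal, and the part of atrial and ventricular tissue in the levels of the members was not tested.

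**Figure D3:**
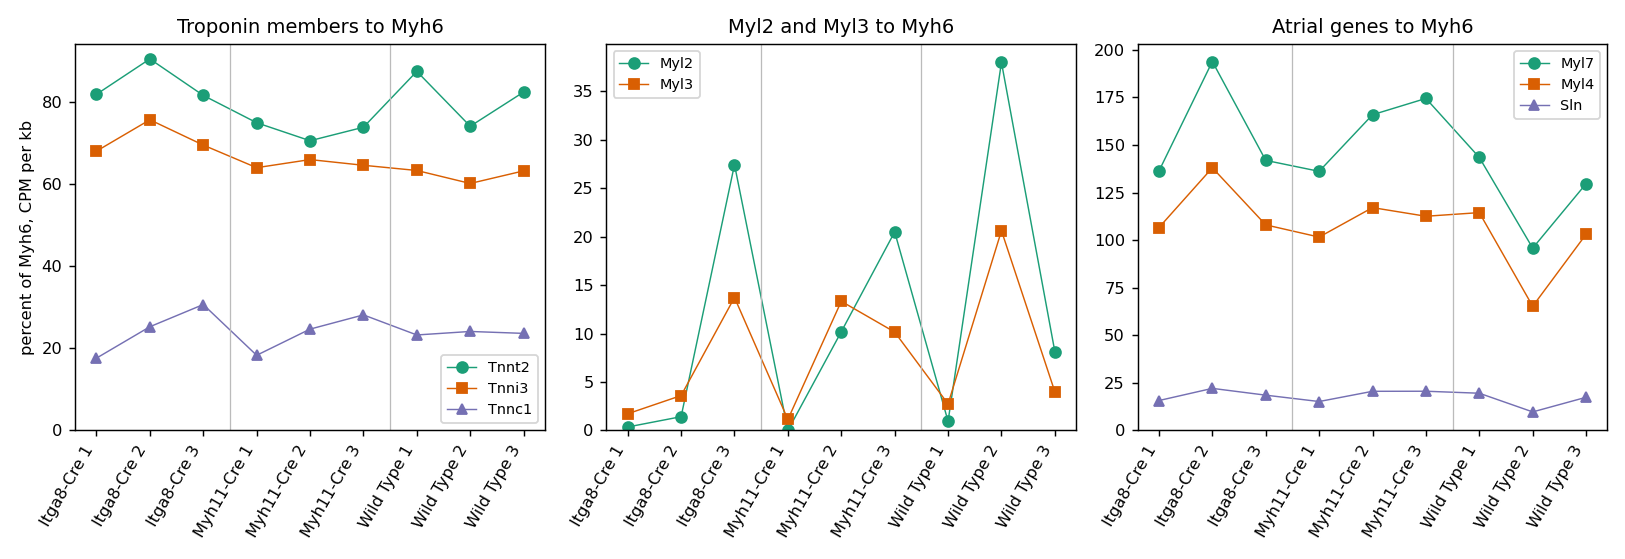
Levels per kb as a percent of Myh6 in each library, for the troponins Tnnt2, Tnni3 and Tnnc1, for Myl2 and Myl3, and for the atrial genes Myl7, Myl4 and Sln; axes start at 0. In Wild Type 2, Myl2 reaches 38.0% and Myl3 20.6% of Myh6 and Myl7 stands at 95.8%, below the other libraries, and Tnni3 has its lowest ratio there, 60.2%.

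The spread of the ratio between members puts these patterns in 1 measure, the SD over the 9 libraries of the log2 ratio of both levels, given without a p. Myh6, Tnnt2 and Tnni3 kept their ratios to within an SD of 0.0966 to 0.122, although their levels had SDs of 0.90 to 0.97 on the log2 scale. With Actc1 and Tnnc1 included, the pairs lay between 0.0966 and 0.456. The slow members Myh7, Tnni1 and Tnnt1 were looser among themselves, at 0.843 to 1.92. By this measure Tnnt1 was nearer to each heart-pattern member, at 1.31 to 1.54, than to Myh7, at 1.92, so the slow members did not form a separate block. Between a heart member and a slow member the SD was 1.31 to 3.11, between a heart member and Myl3 1.28 to 1.66, and between a heart member and Myl2 3.87 to 4.22. In each pair of neighbours on a chromosome the ratio was looser than among the heart-pattern members. It was 2.97 for Myh6 and Myh7, 1.49 for Tnni3 and Tnnt1, and 2.29 for Tnnt2 and Tnni1. The heart-pattern members were grouped by their highest libraries in these same data, so this comparison is a description only.

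**Figure D4:**
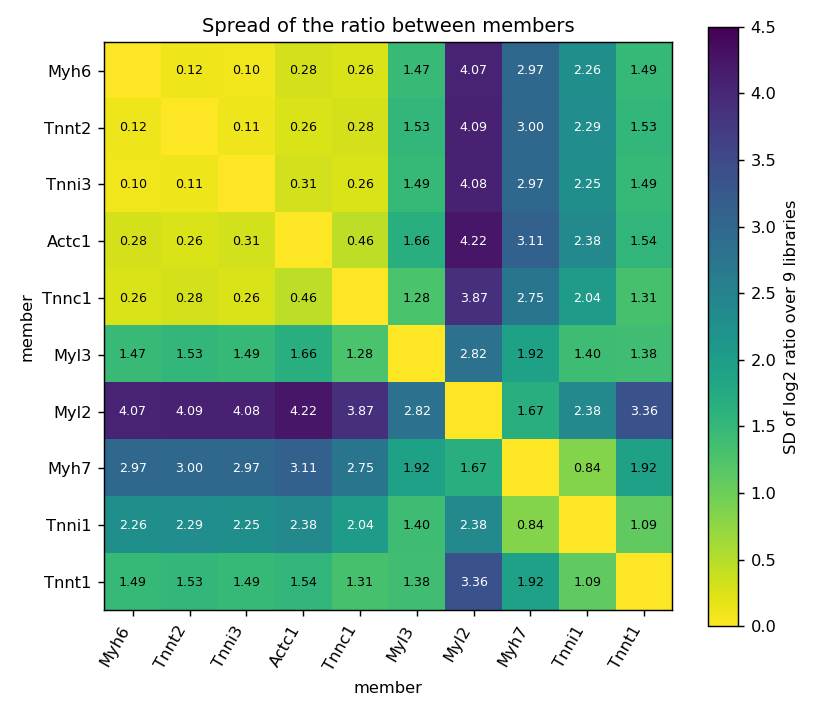
SD over the 9 libraries of the log2 ratio between each pair of members, with yellow cells for pairs that keep their ratio. The block of Myh6, Tnnt2, Tnni3, Actc1 and Tnnc1 lies at 0.0966 to 0.456, and the pairs of Myl2 with these reach 4.22.

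The genes closest to Myh6, Tnnt2, Actc1 and Tnni1 by the same measure were taken from 15408 genes with a mean of at least 1 CPM. Nearest to Myh6 were Rbm20 (SD 0.0662), a splicing factor of titin, Tnni3k (0.125), a kinase of heart muscle, Corin (0.153), the enzyme that activates the atrial natriuretic peptide, Slc47a1 (0.153), a cation exporter, and Cacna1h (0.159), a T-type calcium channel. Rbm20 was at 17.0, 60.1 and 19.7 CPM in the Itga8-Cre mice, 25.2, 71.7 and 67.0 CPM in the Myh11-Cre mice, and 15.2, 41.4 and 14.6 CPM in the Wild Type mice, the order of Myh6 with a level far below it. Nearest to Tnnt2 were the same genes in another order, led by Tnni3k (0.102), with Kcnj3 (0.156), an atrial potassium channel, in place of Corin. Among the nearest to Actc1 were Atp2a2 (0.116), the calcium pump of heart and slow muscle, Aldh1b1 (0.141), C130080G10Rik (0.158) and Gm32849 (0.164).

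Nearest to Tnni1, at larger distances, were H19 (0.353), a long noncoding RNA, Ankrd2 (0.397), an ankyrin repeat protein of slow muscle, Lrrc30 (0.529), Myot (0.544), myotilin of the Z-disc, and Cacna1s (0.560), the calcium channel of skeletal muscle. H19 was at 5.35, 52.5 and 126 CPM in the Itga8-Cre mice, 2.63, 263 and 362 CPM in the Myh11-Cre mice, and 7.71, 26.3 and 37.1 CPM in the Wild Type mice. Its lowest and highest libraries were those of Tnni1.

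Between genes, levels were compared per kb of transcript. Myh6 had the highest mean over the 9 libraries, 382 CPM per kb, followed by Tnnt2 at 299, Actc1 at 283, Tnni3 at 255 and Tnnc1 at 94.7 CPM per kb. Myl2 (50.8), Myl3 (35.8), Tnnt1 (22), Myh7 (19) and Tnni1 (8.24 CPM per kb) followed. The ranges of neighbours in this order overlapped over the libraries: Myh6 ran from 147 to 722 and Tnnt2 from 122 to 568 CPM per kb, and Tnnt1 from 2.79 to 84.5 and Myh7 from 0.0835 to 76.9 CPM per kb.

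The forms of each sarcomere part were then set against each other, per kb and as a share of their sum. Myh6 was 99.79%, 99.1% and 87.4% of Myh6 plus Myh7 in the Itga8-Cre mice, 99.97%, 94.7% and 89.9% in the Myh11-Cre mice, and 99.6%, 97.9% and 94.4% in the Wild Type mice, so the heart alpha form was the main one in each aorta. These 2 genes have similar coding sequences, and whether reads were split between them was not tested. In Myh11-Cre 1, 63765 counts of Myh6 stood beside 19 counts of Myh7. Tnni3 was 91.8% to 99.9% of Tnni3 plus Tnni1 over the 9 libraries, with the same 2 libraries, Itga8-Cre 3 and Myh11-Cre 3, at the low end.

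Against their fast skeletal counterparts the slow troponins T and I were minor forms in most libraries. Tnni1 was 5.07%, 2.77% and 2.86% of Tnni1 plus Tnni2 in the Itga8-Cre mice, 7.12%, 3.32% and 3.41% in the Myh11-Cre mice, and 1.27%, 4.11% and 3.12% in the Wild Type mice. The 7.12% of Myh11-Cre 1 rests on 68 counts in all, with an exact 95% binomial interval of 2.87% to 14.4%. Tnnt1 was 4.08% to 6.24% of Tnnt1 plus Tnnt3 in all libraries but 2, Itga8-Cre 1 at 21.8% (interval 18.1% to 25.8%) and Myh11-Cre 1 at 62.5% (55.9% to 68.7%), which are the libraries with the least fast muscle transcript. Without Myh11-Cre 1 the mean Tnnt1 share in Myh11-Cre was 0.0398 percentage points above that in Wild Type, against 19.1 with it. Myh7 was 1.02% to 7.61% of its sum with the fast myosins Myh1, Myh2 and Myh4. Tnnc1, the troponin C of heart and slow muscle, ranged from 13.1% of Tnnc1 plus Tnnc2 in Itga8-Cre 3 to 96.0% in Myh11-Cre 1. For the 6 shares and 3 comparisons, exact two-sided permutation tests gave p from 0.4 to 1 (adjusted 1 over the 18 tests; 3 against 3 mice cannot go below 0.1), and the groups overlapped in every case.

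In Itga8-Cre against Wild Type, 8 of the 10 members had positive log2 fold changes and none passed the test. Tnni1 averaged 5.97 ± 7.35 CPM in the Itga8-Cre mice and 2.47 ± 1.69 CPM in the Wild Type mice (SD, n = 3 each), a log2 fold change of 1.26 (SE 1.49). Myh6 averaged 2073 ± 1524 CPM in the Itga8-Cre mice and 1496 ± 1008 CPM in the Wild Type mice, a log2 fold change of 0.47 (SE 0.63). Myl2 and Myl3 were the negative ones, at -1.47 (SE 2.03) and -0.90 (SE 1.39): Myl2 averaged 19.2 ± 26.1 CPM in the Itga8-Cre mice and 53.0 ± 81.6 CPM in the Wild Type mice. The median was 0.58 over the members and 0.04 over all genes tested. edgeR's quasi-likelihood test gave adjusted p from 0.767 to 0.899 and called 0 members and 0% of the genes. At an unadjusted p under 0.05 it had 0 members and 6.78% of all genes, and the groups did not overlap for 0 members and 11.1% of all genes.

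Single mice decided these directions. Without Itga8-Cre 2 all 5 heart-pattern members turned negative, from -0.11 for Actc1 to -0.34 for Myh6. Without Itga8-Cre 3 the slow members turned negative, to -0.28 for Tnnt1, -0.48 for Tnni1 and -1.06 for Myh7. Without Wild Type 2 the light chains turned positive, to 1.66 for Myl2 and 1.81 for Myl3. The median of the members was -0.23 without Itga8-Cre 2, 0.16 without Itga8-Cre 3, 0.33 without Wild Type 1, 1.28 without Wild Type 2, 0.32 without Wild Type 3 and 0.92 without Itga8-Cre 1.

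In Myh11-Cre against Wild Type all 10 members had positive log2 fold changes, and again none passed. Tnnt1 averaged 46.1 ± 41.4 CPM in the Myh11-Cre mice and 6.74 ± 3.80 CPM in the Wild Type mice, a log2 fold change of 2.77 (SE 1.14; adjusted p = 0.284 by edgeR's test, unadjusted 0.0398). Tnni1 had 3.01 (SE 1.56) and Myh7 2.66 (SE 1.88), with Myh7 at 244 ± 240 CPM in the Myh11-Cre mice and 38.6 ± 30.1 CPM in the Wild Type mice. The heart members had smaller changes with smaller errors, at 1.20 (SE 0.64) for Myh6, 1.09 (0.62) for Tnnt2, 1.29 (0.64) for Tnni3 and 1.27 (0.71) for Tnnc1. Actc1 averaged 594 ± 181 CPM in the Myh11-Cre mice and 280 ± 114 CPM in the Wild Type mice, a log2 fold change of 1.09 (SE 0.43; adjusted p = 0.273, unadjusted 0.0325). Myl3 had 0.76 (SE 1.38) and Myl2 0.26 (SE 1.98).

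Over the members the median was 1.24, against 0.01 over all genes tested, and edgeR's adjusted p ran from 0.273 to 0.955, with 0 members and 0% of the genes called. Tnnt1 and Actc1, 2 members, had an unadjusted p under 0.05, both higher, beside 16.4% of all genes, and 6.93% of all genes had such a p and were higher. Of all genes tested 26% had groups that did not overlap, and 0 of the members did: Myh11-Cre 1 lay within or below the Wild Type range for every member. Without Wild Type 2 the median was 2.41, and Myl3 stood at 3.50, Myh6 at 1.93, Tnnc1 at 2.02, Tnnt2 at 1.70 and Tnni3 at 1.97. Myl3 was 0.14 without Myh11-Cre 2, 0.25 without Wild Type 1, 0.26 without Wild Type 3 and 1.32 without Myh11-Cre 1, and Myh7 was 1.72 without Myh11-Cre 3. Without Myh11-Cre 3, Wild Type 1 or Wild Type 3 the change of Myl2 turned to -0.69, -0.31 or -0.23. The fast sarcomere genes had positive changes in 12 of 12, with a median of 2.67 and 0 called, and their summed level was far higher in Myh11-Cre 2 and 3 than in the Wild Type mice. With a score of these fast genes as a covariate, the change was 1.65 for Tnnt1, 0.62 for Tnni1 and -0.47 for Myh7, and 0.99 for Myh6 and 0.97 for Actc1.

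The summed levels of mesothelial and of nerve markers stood apart between the Myh11-Cre and Wild Type mice. The sums of smooth muscle, brown fat, thymocyte and endothelial markers overlapped between these groups. Of all genes tested, 26% had groups that did not overlap, a share for single genes and not for sums. In Itga8-Cre against Wild Type that share was 11.1%. There the mesothelial sum stood apart, as did the smooth muscle sum given above, and the nerve, brown fat, thymocyte and endothelial sums overlapped. The summed level of 6 mesothelial markers was 68.7 to 77.1 CPM in the Itga8-Cre mice and 81.3 to 164 CPM in the Myh11-Cre mice, against 27.7 to 57.6 CPM in the Wild Type mice. All 6 had positive changes in both lines, with medians of 0.94 in Itga8-Cre and 1.43 in Myh11-Cre. Of all genes tested, 55.9% were positive in Itga8-Cre and 50.9% in Myh11-Cre. The summed level of 7 nerve markers was 234 to 367 CPM in the Itga8-Cre mice and 95.7 to 235 CPM in the Myh11-Cre mice, against 256 to 562 CPM in the Wild Type mice, and 6 of 7 were negative in each line, with medians of -0.68 and -1.91. No mesothelial or nerve marker was at 0 or passed the test, and the part of these tissues in the values of the members was not tested.

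In Itga8-Cre against Myh11-Cre all 10 members had negative log2 fold changes, with a median of -1.18 over the members and 0.01 over all genes. The largest were those of Myh7, -1.76 (SE 1.82), and Tnni1, -1.74 (SE 1.47), and the smallest that of Tnnt2, -0.47 (SE 0.61). Adjusted p by edgeR's test ran from 0.624 to 0.781. It called 0 members and 0% of the genes, and 0 members and 9.48% of all genes had an unadjusted p under 0.05. The groups did not overlap for 0 members and 12.7% of all genes. Without Itga8-Cre 3 the change was -3.73 for Myh7, -3.50 for Tnni1, -3.07 for Tnnt1 and -3.92 for Myl2, and without Myh11-Cre 3 it was -0.81, -0.93, -0.78 and -0.77 for these genes. Without Itga8-Cre 2 it was -1.55 for Myh6, -1.38 for Tnnt2, -1.47 for Tnni3, -1.58 for Tnnc1 and -1.20 for Actc1, and without Itga8-Cre 1 it was -0.45 for Myh6, -0.17 for Tnnt2, -0.26 for Tnni3 and -0.36 for Tnnc1. Myl3 was -1.06 without Myh11-Cre 2. The median was -0.80 without Itga8-Cre 1, -0.68 without Myh11-Cre 3 and -0.81 without Myh11-Cre 2. Both Cre lines were set against the same Wild Type mice, and the third comparison uses the libraries of the other 2, so the 3 are not separate evidence. DESeq2 and limma voom, run beside edgeR, also called 0 members in each comparison.

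**Figure D5:**
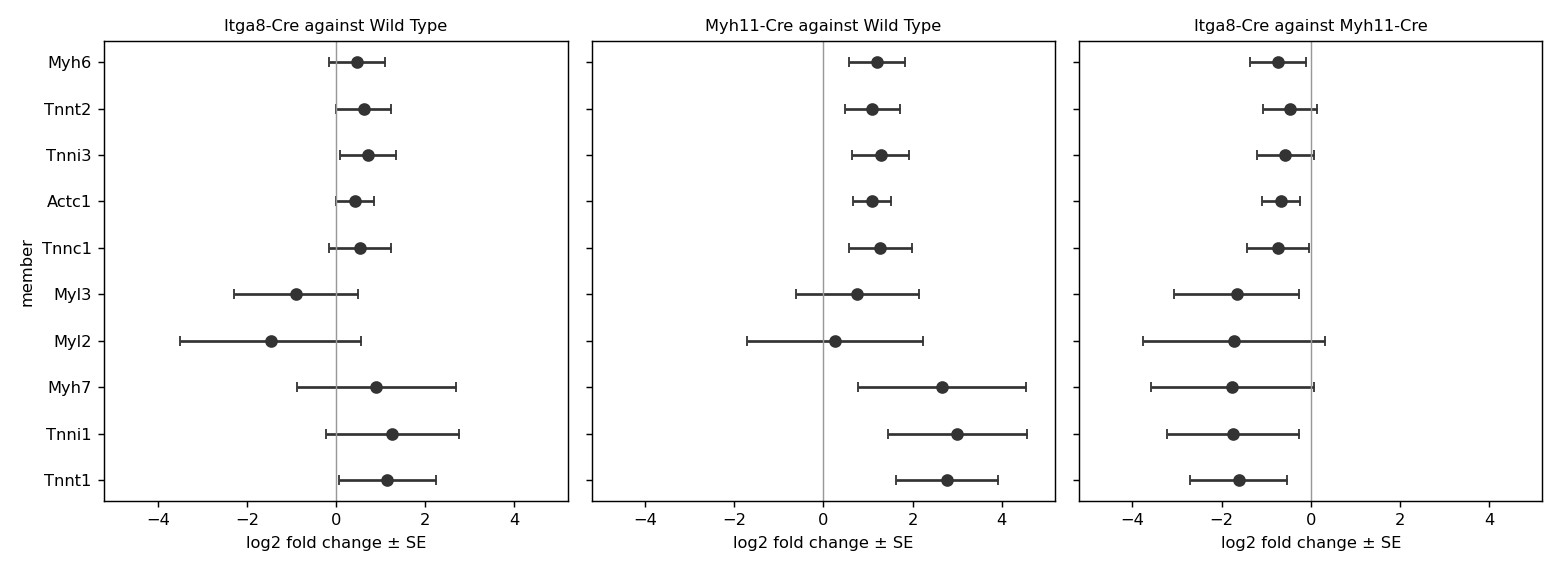
Log2 fold change with its SE for the 10 members in Itga8-Cre against Wild Type, Myh11-Cre against Wild Type and Itga8-Cre against Myh11-Cre, from edgeR's fit to all 9 libraries. The errors of Myh7, Myl2, Myl3, Tnni1 and Tnnt1 are 1.09 to 2.04, those of the other members 0.42 to 0.71, and no member passed the test.

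Other genes of these muscles also did not pass the test. Of 9 further genes of slow fibres, 8 had positive changes in both Cre lines against Wild Type, with medians of 0.53 in Itga8-Cre and 1.03 in Myh11-Cre, and 0 passed. Of 16 tested genes of the other heart list, 12 and 15 were positive, with medians of 0.37 and 0.87, and 0 passed. Of 23 tested regulators of striated muscle genes, 13 were positive in Itga8-Cre (median 0.03) and 12 in Myh11-Cre (median 0.12), and 0 passed. Among them Myod1 and Myf6, regulators of skeletal muscle, had the 3 highest libraries of Tnni1, and Prox1, a regulator known in heart and slow fibres, had the 4 of Myh6.

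Several members overlap other genes, and nothing here states whether counting took account of strand. Myh7 lies over Mhrt, a noncoding RNA of the heart read from the opposite strand, which had 34 to 167 counts per library and kept a per-kb level of 0.62% to 1.04% of Myh6. Myl2 overlaps Ccdc63, Myl3 overlaps Pth1r, Tnnc1 overlaps Nisch and Actc1 overlaps A530058N18Rik, each on the opposite strand, and Tnni3 overlaps Dnaaf3 on its own strand. Without strand, reads of partners on opposite strands could be mixed or left uncounted. Strand would not separate Tnni3 from Dnaaf3.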

How the data were processed

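Polyadenylated RNA of whole aortae (3 mice each of Itga8-Cre, Myh11-Cre and Wild Type) was sequenced with a strand-marking kit, per the labels' protocols. The authors deposited whole-number counts per gene, used for every test, and normalized signal values, which equal those counts over a size factor and were used only as a check. The submitters' processing notes name STAR 2.7.0f, fastp 0.20.0, featureCounts (Subread 1.6.4), DESeq2, Salmon 0.13.1 and the build GRCm38.p6, giving no role or order. Members and lists were chosen with earlier results of these data known.

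Counts were fitted in R 4.3.3 with edgeR 4.0.16 (filterByExpr by group, TMM, group-means model on all 9 libraries, robust quasi-likelihood F test, Benjamini-Hochberg over 19412 genes, threshold 0.05). The SE of a log2 fold change is its absolute value over the square root of its F value, worked back from that test. Replicates came from separate mice. The other tools were limma 3.58.1 with voom and DESeq2 1.42.0. Levels are CPM on TMM-scaled library sizes, per kb of the principal transcript of GENCODE M21. Shares had exact permutation tests, two-sided, and intervals and floors (3 counts) cover counting error only. Named genes were all members, the fast counterparts, up to 4 genes of highest mean CPM per list, and the 5 genes closest to Myh6, Tnni1, Tnnt2 and Actc1 by the SD of the log2 ratio (prior count 0.5), of which 1 is not reported here; others (Itga8, Mhrt, Irx4, H19's levels, list genes named for their highest libraries) were named for position or after their values were seen. On simulated data for Myh11-Cre against Wild Type with 19412 genes, edgeR recovered 44% of 2-fold and 89% of 4-fold changes, with 9 false calls. DESeq2 recovered 62% and 95%, with 62 false calls. The changed genes were drawn at random from those with a mean over 1 CPM. The members varied more than most genes, with SDs of the log2 level at the 84.5th to 99.99th percentile. These rates therefore do not carry over to the members. Alternatives were other scaling, filter and tools, fits of 2 groups only, mouse number as a block, a fast muscle score as covariate, and leaving out libraries.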

Additional observations from a re-analysis of the deposited data

How the results depend on the processing

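The number of members called was 0 in every comparison under each of the 18 alternatives, with a smallest adjusted p of 0.0629 over members and alternatives, for Tnnt1 in Myh11-Cre against Wild Type without Itga8-Cre 1 and Myh11-Cre 1 (log2 fold change 3.30; the range over its alternatives reached 0.736). DESeq2 gave a smallest of 0.0876, for Actc1. Counting error bears most on Tnni1, Myh7, Myl2 and Tnnt1, which had under 100 counts in at least 1 library. The cause of each change of direction below was not tested.

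With Myh11-Cre 2, Myh11-Cre 3 and Itga8-Cre 3 (most fast muscle transcript) left out together, a single Myh11-Cre library remains, whose variation is assumed equal to that of the others, and the median of the members was 0.16, -0.46 and 0.79 in Itga8-Cre against Wild Type, Myh11-Cre against Wild Type and Itga8-Cre against Myh11-Cre. In the first, Tnnt1, Tnni1 and Myh7 turned to -0.29, -0.48 and -1.06. In the second, Tnnt1, Tnni1, Myh7, Myl3 and Tnnc1 turned to -0.75, -3.67, -6.21, -3.36 and -0.16, and Myl2, fitted against 0 counts and so no bound, to -13.92. In Itga8-Cre against Myh11-Cre, Tnnt1, Tnni1, Myh7, Myl3, Tnnc1, Myh6, Tnnt2, Tnni3 and Actc1 turned to 0.47, 3.19, 5.14, 1.97, 0.85, 0.49, 0.73, 0.70 and 0.12, and Myl2 to 10.26, also no bound. With the fast muscle score as covariate, Myh7 became -0.40 in the first comparison, Myh7, Myl2 and Myl3 -0.47, -3.46 and -0.56 in the second, and Myh7 and Myl2 0.07066 and 0.32 in Itga8-Cre against Myh11-Cre. limma voom gave Myl2 -1.31 in Myh11-Cre against Wild Type and 0.20 in Itga8-Cre against Myh11-Cre.

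The mouse numbers were not taken as pairs: 5 of 9 same-numbered pairs had a correlation of residuals over 0.1 (range 0.04 to 0.39, other pairs -0.34 to 0.25), and 7 of 9 libraries correlated best with their own number, a hint from the data, not the design. With mouse number as a block, 0 members were called, the medians were 0.42, 1.31 and -1.04, and Myl2 turned to -0.37 in Myh11-Cre against Wild Type.

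Leaving out 1 library at a time moved the log2 fold changes in Itga8-Cre against Wild Type over -0.28 to 1.64 for Tnnt1, -0.48 to 1.82 for Tnni1, -1.06 to 1.47 for Myh7, -3.66 to 1.66 for Myl2, -1.44 to 1.81 for Myl3, -0.30 to 1.25 for Tnnc1, -0.34 to 1.17 for Myh6, -0.28 to 1.20 for Tnnt2, -0.17 to 1.38 for Tnni3 and -0.11 to 0.79 for Actc1. In Myh11-Cre against Wild Type Myl2 ran from -0.69 to 3.41 and Myl3 from 0.14 to 3.50. In Itga8-Cre against Myh11-Cre Myh7 ran from -3.73 to -0.81, Tnni1 from -3.50 to -0.93 and Tnnt2 from -1.38 to -0.17. The medians ran over -0.23 to 1.28, 0.98 to 2.41 and -1.65 to -0.68. For differences in shares in percentage points, in the same order of comparisons, Myh7 ran over -2.16 to 1.14, -1.69 to 1.61 and -1.50 to 0.261, Tnni1 over -0.0471 to 1.37 (Itga8-Cre against Wild Type) and -1.80 to 0.203 (Itga8-Cre against Myh11-Cre), Tnnt1 over -0.391 to 8.17, 0.0398 to 28.8 and -23.6 to 5.23, Tnnc1 over -6.28 to 28.2, -22.4 to 17.0 and -9.10 to 31.3, Myh6 over -4.03 to 2.14, -5.03 to 0.00989 and -1.87 to 4.61, and Tnni3 over -2.81 to 1.14 (Itga8-Cre against Wild Type) and -0.992 to 3.19 (Itga8-Cre against Myh11-Cre).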

Other observations

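Myh8, the myosin heavy chain of developing skeletal muscle and named after its values were seen, was at 546 CPM in Myh11-Cre 2 and at no more than 1.09 CPM in any other library. Bmp10, a growth factor of the atrium, was at 249 CPM in Myh11-Cre 2, at 39.7 CPM in Myh11-Cre 3, at 6.08 CPM in Wild Type 2 and at 1.21 CPM or less elsewhere. Nppa, the atrial natriuretic peptide, was at 1830 CPM in Itga8-Cre 2, at 1897 and 1539 CPM in Myh11-Cre 2 and 3, and at 437 CPM in Wild Type 2, against 18.4 to 73.8 CPM in the other libraries. These 4 libraries were also the highest for Myh6.

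The ratio of Tnni3 to Myh6, per kb, had values that did not overlap between the groups of 3 mice. It was picked from many ratios after their values were seen, and was not tested. For 3 against 3 mice an exact permutation p cannot be below 0.1. Levels of single genes did not overlap in 11.1% of all genes in Itga8-Cre against Wild Type. That share was 26% in Myh11-Cre against Wild Type and 12.7% in Itga8-Cre against Myh11-Cre. No such share was worked out for ratios. The ratio of Tnni3 to Myh6 was 68.1%, 75.8% and 69.6% in the Itga8-Cre mice and 64.1%, 66.0% and 64.7% in the Myh11-Cre mice. In the Wild Type mice it was 63.4%, 60.2% and 63.3%, so that no groups overlapped. The closest values of different groups were 64.1% in a Myh11-Cre mouse and 63.4% in a Wild Type mouse. For Tnnt2 to Myh6 the values were 82.0%, 90.6% and 81.7% in the Itga8-Cre mice, 75.0%, 70.6% and 73.9% in the Myh11-Cre mice, and 87.6%, 74.2% and 82.5% in the Wild Type mice, and the Wild Type mice overlapped both lines.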
